A study of Homo sapiens with 8 samples.

Results

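The expression of 10 genes of the YAP and TAZ pathway was examined on all 8 arrays of an RND3 knockdown experiment, out of 19480 gene symbols that could be assigned to array probes. The genes cover the roles of the pathway: the co-activators YAP1 and WWTR1 (which encodes TAZ), the DNA-binding partners TEAD1 and TEAD4, the kinases LATS1 and LATS2, and the target genes CCN1 (formerly CYR61), CCN2 (formerly CTGF), ANKRD1 and AMOTL2. Every probe whose transcript maps to 1 of these genes was taken, which gave 1 probe per gene and 2 for LATS1. Total RNA came from U87 cells, an established human glioblastoma line, transfected either with siRNA against RND3, the gene for an atypical small GTPase that affects the actin cytoskeleton (siRND3), or with a non-silencing control siRNA (siControl). There were 3 siControl and 3 siRND3 arrays at 24 h after transfection and 1 array of each kind at 48 h. All groups therefore share the parental line and the transfection itself and differ in the siRNA and the time. The study designed more than 1 siRNA for RND3, and its sources do not tie an array to a particular one or say whether replicates were separate transfections. The p-values therefore measure the spread between these arrays, which may be technical. All 8 arrays lay on 1 slide, with siControl in slide row 2 and siRND3 in slide row 1, and the effect of the row cannot be told apart from that of the siRNA. The arrays at 24 h lay in slide columns 1 to 3 and those at 48 h in column 4. Within a treatment, the effect of the column cannot be told apart from that of the time.

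YAP and TAZ are transcriptional co-activators that do not bind DNA themselves. When the Hippo kinases are active, LATS1 and LATS2 phosphorylate YAP and TAZ, which are then held in the cytoplasm or degraded; when the kinases are inactive, or when actin tension is high, YAP and TAZ enter the nucleus and bind TEAD factors at target genes such as CCN1, CCN2, ANKRD1 and AMOTL2. YAP and TAZ are widely studied in glioblastoma for their part in growth and in the mesenchymal state. The arrays measured transcripts only, and neither the phosphorylation nor the location of a protein was measured.

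The RND3 transcript, which checks the labels, was lower on each siRND3 array than on each siControl array of the same time. Its log2 signal was 11.88, 11.91 and 11.90 on the siControl arrays at 24 h and 10.12, 10.18 and 10.42 on the siRND3 arrays, which left 31.7% of the control level (log2 difference -1.66, SE 0.10, n = 3 and 3, limma adjusted p = 0.000345). At 48 h, 31.9% was left. Of the markers examined, the 5 genes taken here as mesenchymal glioblastoma markers (VIM, CD44, NES, FN1 and CHI3L1) were all measured. GFAP, SOX2 and the epithelial gene CDH1 were not well above background on any array. The log2 of the summed signal of the 6 epithelial, leukocyte and endothelial markers, of which 5 could be tested, lay between 8.41 and 8.61 in siControl and between 8.56 and 8.70 in siRND3 cells at 24 h, and that of the 4 glial markers lay between 5.32 and 5.73 and between 4.41 and 4.67, with OLIG2 the only glial marker tested (log2 difference -1.40, adjusted p = 0.00165). Of those 5 genes, CD44, which the study also names as a mesenchymal marker, fell (-0.58, adjusted p = 0.00721), to 23.1% of control at 48 h. NES, which the study does not name as one, rose on 1 of its 2 probes (0.41, adjusted p = 0.0472), the other standing at 0.23 (adjusted p = 0.196). The endothelial marker PECAM1 also fell on the brightest of its 3 probes (-0.99, adjusted p = 0.0216). Another of its probes had a mean log2 signal of 5.24 in siControl and 4.66 in siRND3 cells at 24 h, and the last was too dim to test. The endothelial marker CDH5 stood at 0.31 and did not pass (adjusted p = 0.0619). The part of these differences in the results that follow was not tested. In RNA from whole cultures, fewer cells with a transcript and less of it per cell cannot be told apart.

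At 24 h, 4 of the 9 member genes that could be tested were differentially expressed between siRND3 and siControl cells at an adjusted p under 0.05. YAP1, LATS1 and CCN2 were down-regulated and TEAD4 was up-regulated. Over all 14803 genes tested, 16.5% were called in either direction, 9.26% lower and 7.16% higher. WWTR1, TEAD1, LATS2, CCN1 and AMOTL2 did not pass the threshold, and ANKRD1 could not be tested. The median log2 difference over the 9 genes was -0.03, beside 0.04 over all genes tested. The groups of 3 arrays did not overlap for 6 of the 10 tested member probes, 3 lower and 3 higher in siRND3 cells, beside 34.4% of all probes. An exact two-sided permutation test of 3 arrays against 3 cannot give a p below 0.1, which is the value it gave for each of those 6 probes. Leaving out any single siControl array reduced the member genes called from 4 to 2, which were YAP1 and CCN2 each time. The share called over all genes then fell from 16.5% to between 7.13% and 8.26%.

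**Figure D1:**
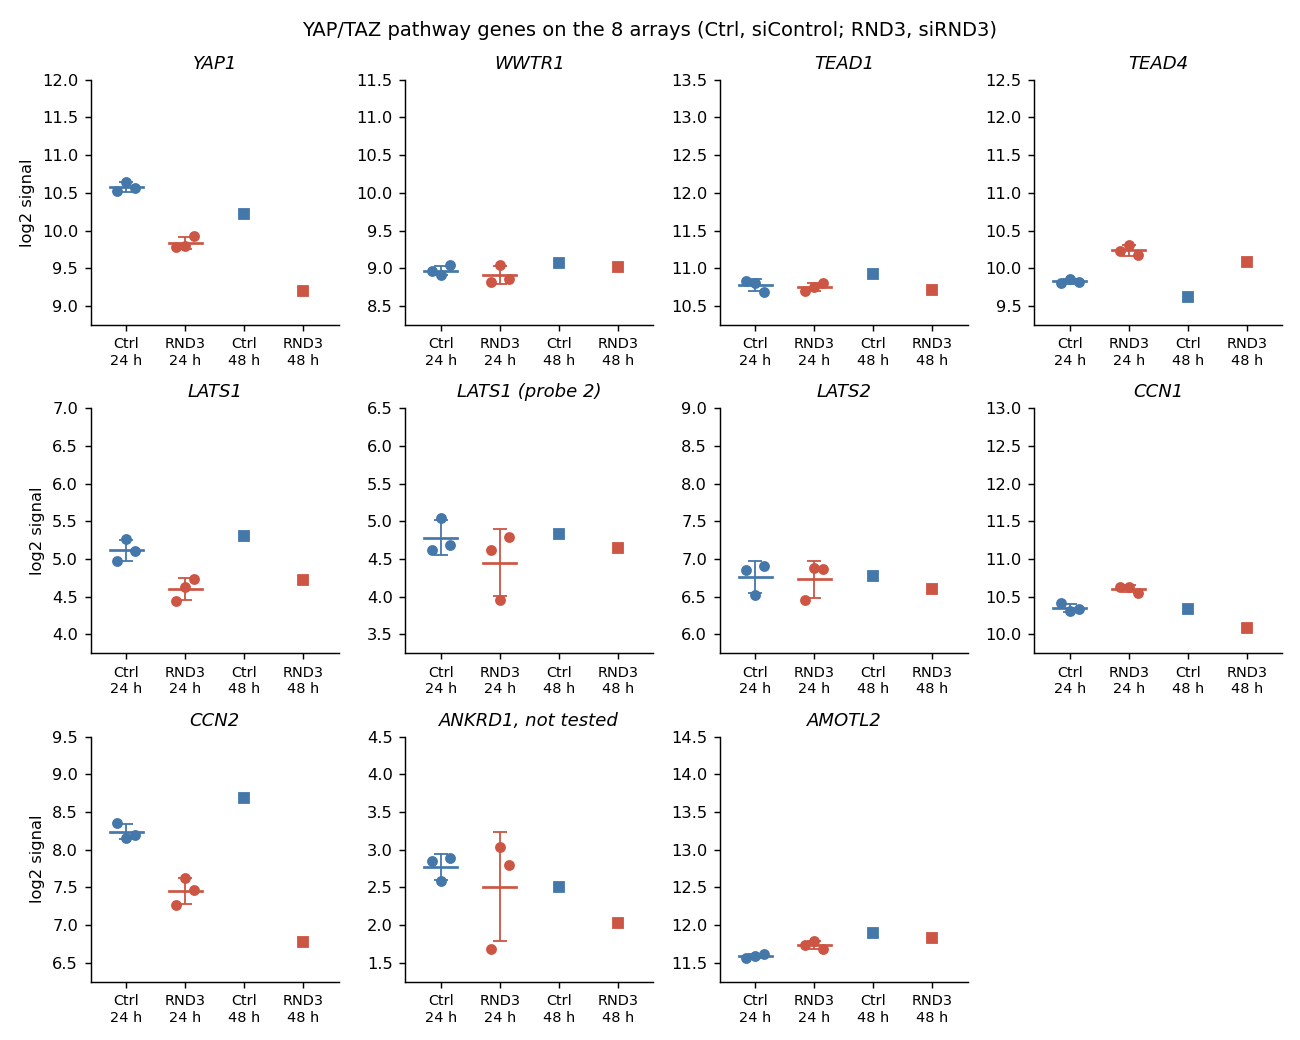
Log2 quantile-normalised signal (vertical axis, the same span in each panel) of each member probe in siControl (blue) and siRND3 (red) cells at 24 h (circles, with mean and SD of 3 arrays) and 48 h (squares, 1 array each). YAP1, CCN2 and the first LATS1 probe lie lower in siRND3 cells at both times, TEAD4 lies higher at both times, and CCN1 lies higher at 24 h and lower at 48 h.

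The co-activators behaved differently from each other. YAP1, the founding co-activator of the pathway, was measured by a probe printed on 10 spots of each array. Its log2 signal was 10.52, 10.65 and 10.57 on the siControl arrays at 24 h and 9.78, 9.80 and 9.93 on the siRND3 arrays. It was 10.22 in siControl and 9.20 in siRND3 cells at 48 h. The siRND3 value was thus below siControl at either time, with no overlap at 24 h, and the lowest of all 8 values was that of siRND3 cells at 48 h. Knockdown cells held 59.9% of the control level at 24 h (log2 difference -0.74, SE 0.08, n = 3 and 3, limma adjusted p = 0.00297) and 49.4% at 48 h, where 1 array against 1 allows no replicate check. The 10 spots gave log2 differences between -0.80 and -0.68 at 24 h when taken singly. They are repeat measurements of the same RNA and not further samples.

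WWTR1, the gene for TAZ, showed no such difference. Its log2 signal was 8.96, 8.91 and 9.04 in siControl and 8.82, 9.04 and 8.86 in siRND3 cells at 24 h, then 9.07 and 9.01 at 48 h. The groups overlapped, and the log2 difference at 24 h was -0.07 with a 95% interval from -0.28 to 0.14 (unadjusted, as are all intervals given here; adjusted p = 0.658). A fall in WWTR1 as large as that of YAP1 lies outside this interval.

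TEAD1 and TEAD4, which carry YAP and TAZ to DNA, also differed. TEAD4 read 9.80, 9.86 and 9.82 in siControl and 10.23, 10.31 and 10.17 in siRND3 cells at 24 h, and 9.62 and 10.08 at 48 h. Each siRND3 value was above every siControl value at either time. The rise at 24 h was 0.41 on the log2 scale, to 133% of control (SE 0.07, adjusted p = 0.0169), and the level at 48 h was 137% of control. The call was lost on leaving out any 1 of the siControl arrays, at an adjusted p of up to 0.0799, while the log2 difference stayed between 0.38 and 0.44. TEAD1 read 10.83, 10.81 and 10.69 in siControl and 10.70, 10.75 and 10.80 in siRND3 cells at 24 h. Its groups overlapped, with a difference of -0.03 (95% interval -0.21 to 0.15, adjusted p = 0.847). At 48 h it read 10.92 in siControl and 10.71 in siRND3 cells.

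The kinases LATS1 and LATS2 phosphorylate YAP and TAZ directly. LATS1 was dim, with a processed signal between 20.8 and 42.0 on the array's linear scale for its brighter probe, although both of its probes were well above background on all 8 arrays. The brighter probe read 4.98, 5.26 and 5.10 in siControl and 4.44, 4.63 and 4.73 in siRND3 cells at 24 h, and 5.31 and 4.72 at 48 h. Its groups did not overlap, and it fell by 0.51 on the log2 scale (SE 0.11, adjusted p = 0.0362). The other LATS1 probe read 4.62, 5.05 and 4.68 in siControl and 4.62, 3.95 and 4.79 in siRND3 cells, and those groups overlapped. Its difference of -0.33 had a 95% interval from -0.89 to 0.23 (adjusted p = 0.414), so LATS1 counts as called on 1 of its 2 probes. The call on the brighter probe passed in 7 of 17 other settings, with estimates between -0.58 and -0.13 and an adjusted p of up to 0.236. It was lost on leaving out any array except siRND3 replicate 3, with the normexp background, the authors' deposited values, no filter on dim probes and the replicate block, and with the mean of both probes. LATS2 read 6.86, 6.52 and 6.91 in siControl and 6.45, 6.88 and 6.87 in siRND3 cells, and 6.77 and 6.60 at 48 h. It did not pass (difference -0.03, 95% interval -0.41 to 0.36, adjusted p = 0.931). Its interval is wide enough to include a fall of up to 0.41.

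**Figure D2:**
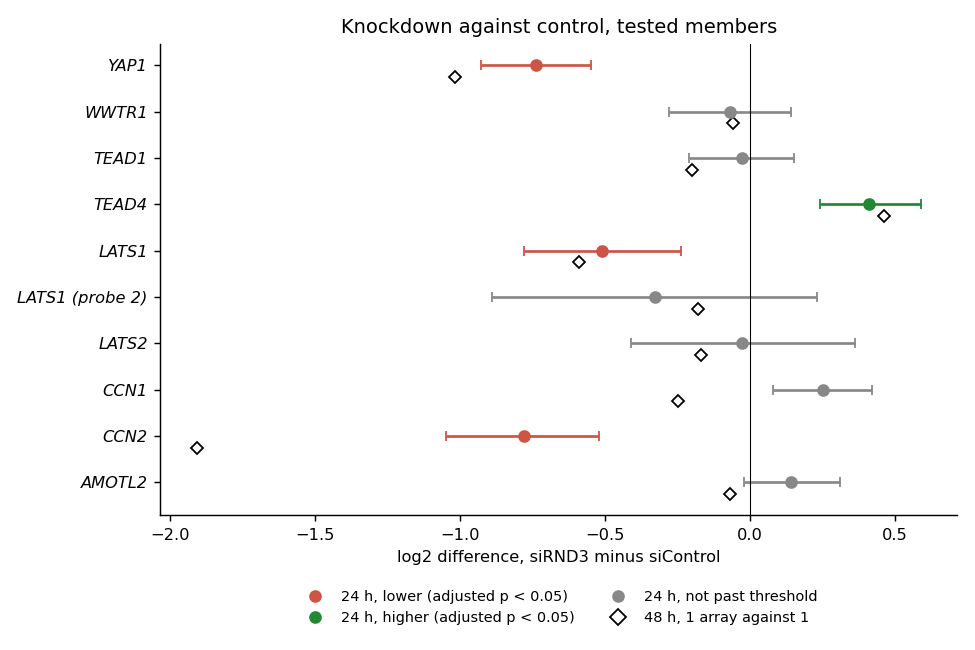
Log2 difference of siRND3 minus siControl (horizontal axis) for each tested member probe, with the 24 h estimate and its unadjusted 95% interval from 3 arrays against 3 (circles) and the 48 h difference of 1 array against 1 (diamonds). CCN2 (-0.78), YAP1 (-0.74) and 1 LATS1 probe (-0.51) lie below 0 and TEAD4 (0.41) above it at 24 h, and the CCN2 diamond stands at -1.91.

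Of the target genes, CCN2 was down-regulated, CCN1 and AMOTL2 did not pass the threshold and ANKRD1 was too dim to test. In the textbook account, TEAD factors bind the bases GGAATG, whose reverse complement is CATTCC. AP-1 factors, which often occupy the same enhancers, bind palindromic letters of the form TGANTCA. The search allowed any base at N, which is looser than the textbook AP-1 site. The first of these 2 patterns is called the TEAD motif here and was counted in both orientations. No match of it overlapped a match of the second in the members' windows. RefSeq promoter windows (GRCh38.p14) were found for 7 of the 10 members, and the 250 bases before the annotated start were searched for these letters on both strands. The TEAD motif stood in 4 of the 7 genes (YAP1, CCN2, ANKRD1 and AMOTL2), among them all 3 of the target genes that have a window, beside 11.9% of 35116 windows and 14.3% of 27305 genes. CCN2 held 3 copies, at 169, 104 and 95 bases before the start, as do 0.080% of windows, and TATAAA, searched on the strand of the gene only, 32 bases before the start, as do 6.8% of windows in any position. ANKRD1 held 2 copies at 220 and 128 bases, as do 0.93% of windows with 2 or more. It also held TGANTCA once, as TGATTCA at 195 bases, and 6.6% of windows hold TGANTCA in any position. WWTR1, LATS1 and LATS2 had no TEAD motif in their windows. Of the 2 LATS1 windows, 1 held TATAAA at 132 bases and the other held TGANTCA, as TGAATCA at 245 bases. A match of letters is a description and does not show binding.

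The windows of the 3 target genes and of YAP1 are shown because they are the members in which the TEAD motif was found. Each runs 5′ to 3′ on the strand of the gene, with the TEAD motif in capitals. They lie at chr6:131951373-131951622 on the minus strand for CCN2, chr10:90921088-90921337 on the minus strand for ANKRD1, chr3:134374448-134374697 on the minus strand for the AMOTL2 window that holds a match, and chr11:102110197-102110446 on the plus strand for YAP1.
CCN2: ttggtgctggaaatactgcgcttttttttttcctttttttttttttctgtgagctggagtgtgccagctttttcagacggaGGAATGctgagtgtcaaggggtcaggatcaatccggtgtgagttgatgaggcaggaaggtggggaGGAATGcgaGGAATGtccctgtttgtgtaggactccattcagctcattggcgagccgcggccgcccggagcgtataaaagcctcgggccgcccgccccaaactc
ANKRD1: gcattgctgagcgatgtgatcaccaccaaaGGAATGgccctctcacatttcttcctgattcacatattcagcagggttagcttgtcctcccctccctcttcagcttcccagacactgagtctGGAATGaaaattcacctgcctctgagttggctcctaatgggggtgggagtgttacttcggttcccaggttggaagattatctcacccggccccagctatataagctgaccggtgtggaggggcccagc
AMOTL2: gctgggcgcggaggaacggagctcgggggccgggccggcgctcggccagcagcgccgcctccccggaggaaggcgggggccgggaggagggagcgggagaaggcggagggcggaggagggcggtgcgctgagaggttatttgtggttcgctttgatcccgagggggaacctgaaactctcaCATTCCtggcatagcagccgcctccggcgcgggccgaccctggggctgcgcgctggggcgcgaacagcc
YAP1: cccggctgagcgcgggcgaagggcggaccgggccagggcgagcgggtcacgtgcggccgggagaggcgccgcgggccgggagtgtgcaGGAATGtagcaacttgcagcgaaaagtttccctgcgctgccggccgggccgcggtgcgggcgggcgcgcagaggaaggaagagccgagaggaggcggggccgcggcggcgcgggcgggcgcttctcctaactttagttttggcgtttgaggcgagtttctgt

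CCN2, which encodes the secreted matrix-associated protein CTGF and is a standard readout of YAP and TAZ, was down-regulated. Its log2 signal was 8.35, 8.16 and 8.20 in siControl and 7.27, 7.62 and 7.47 in siRND3 cells at 24 h. At 48 h it was 8.69 in siControl and 6.78 in siRND3 cells, the highest and the lowest of its 8 values. Knockdown cells held 58.1% of the control level at 24 h (log2 difference -0.78, SE 0.11, n = 3 and 3, adjusted p = 0.00775) and 26.7% at 48 h. The groups did not overlap at 24 h, and the call held under each of 17 other settings, with estimates between -1.06 and -0.60. The lower value at 48 h rests on 2 spots of the single siRND3 array that read 7.18 and 6.39, which gave differences of -1.54 and -2.27 from the matching siControl spots.

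CCN1, the close relative of CCN2 and likewise an early target, followed another course. It read 10.41, 10.31 and 10.34 in siControl and 10.63, 10.63 and 10.55 in siRND3 cells at 24 h. It read 10.34 in siControl and 10.09 in siRND3 cells at 48 h. The siRND3 arrays were thus all above siControl at 24 h and the siRND3 array was below it at 48 h. The difference at 24 h was 0.25 (95% interval 0.08 to 0.42) and missed the threshold after adjustment (adjusted p = 0.0713), although it passed in 2 of 17 other settings. AMOTL2, a target that also encodes an angiomotin-family scaffold able to bind YAP, was bright. It read 11.57, 11.59 and 11.62 in siControl and 11.74, 11.79 and 11.68 in siRND3 cells at 24 h, with no overlap and a difference of 0.14 that did not pass (95% interval -0.02 to 0.31, adjusted p = 0.231). At 48 h it read 11.89 and 11.83.

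ANKRD1, which encodes a cardiac and muscle ankyrin-repeat protein often used as a YAP readout, was not well above background on most arrays. Its log2 signal was 2.85, 2.58 and 2.89 in siControl and 1.69, 3.04 and 2.80 in siRND3 cells at 24 h, and 2.50 and 2.03 at 48 h. Only 1 of the 8 arrays, a siRND3 array at 24 h, showed it well above background, so no fold is given.

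Within each array, the log2 ratio of a gene to its relative shows unequal change free of any shift common to the whole array. These 4 pairs were compared after their values had been seen. From siControl to siRND3 cells at 24 h the ratio of YAP1 to WWTR1 changed by -0.67, that of TEAD1 to TEAD4 by -0.44, that of LATS1 to LATS2 by -0.48 and that of CCN1 to CCN2 by 1.04. The exact two-sided permutation p was 0.1 for each, also after adjustment over the 4 pairs, which is the smallest this design gives. With the dimmer LATS1 probe the ratio to LATS2 changed by -0.30 and the groups overlapped. At 48 h the same ratios differed by -0.96, -0.66, -0.42 and 1.66. The SD of the LATS1 to LATS2 ratio over the siControl arrays was 0.35, the widest of the 4.

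Time was compared in a limma model of all 4 groups. Since each treatment has only 1 array at 48 h, its spread was taken from the arrays at 24 h. No member gene had a knockdown effect that differed between 48 h and 24 h at an adjusted p under 0.05 by limma, beside 4.24% of all genes, and 2 of the 10 tested member probes had an unadjusted p under 0.05, those of CCN1 and CCN2, beside 18.4% of all probes. CCN2 came nearest, with an effect at 48 h lower than that at 24 h by 1.12 on the log2 scale (SE 0.22, adjusted p = 0.0553), and it passed in 5 of 14 other settings. For CCN1 the difference between the effects was -0.50 (adjusted p = 0.129). For YAP1 it was -0.28 (adjusted p = 0.429), and for TEAD4 0.04 (adjusted p = 0.923).

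The change over time within each treatment differed in count. In siControl cells no member passed between 24 h and 48 h by limma, beside 5.17% of all genes, while 3 of the 10 probes (YAP1, AMOTL2 and CCN2) had an unadjusted p under 0.05, beside 21.6% of all probes. In siRND3 cells 3 members were lower at 48 h than at 24 h, beside 9.19% of all genes called lower. These were YAP1 (log2 change -0.63, adjusted p = 0.0217), CCN1 (-0.51, adjusted p = 0.0289) and CCN2 (-0.67, adjusted p = 0.048). The siControl change of CCN2 was 0.45 and that of CCN1 -0.01, neither past the threshold. Leaving out 1 array at 24 h reduced these 3 calls to between 0 and 2, the count of 0 being without siControl replicate 3. Over all genes the share called in either direction then fell from 12.9% to between 7.09% and 11.3%. The test of a difference between the treatments in their change over time is the comparison of effects given above, which no member passed.

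**Figure D3:**
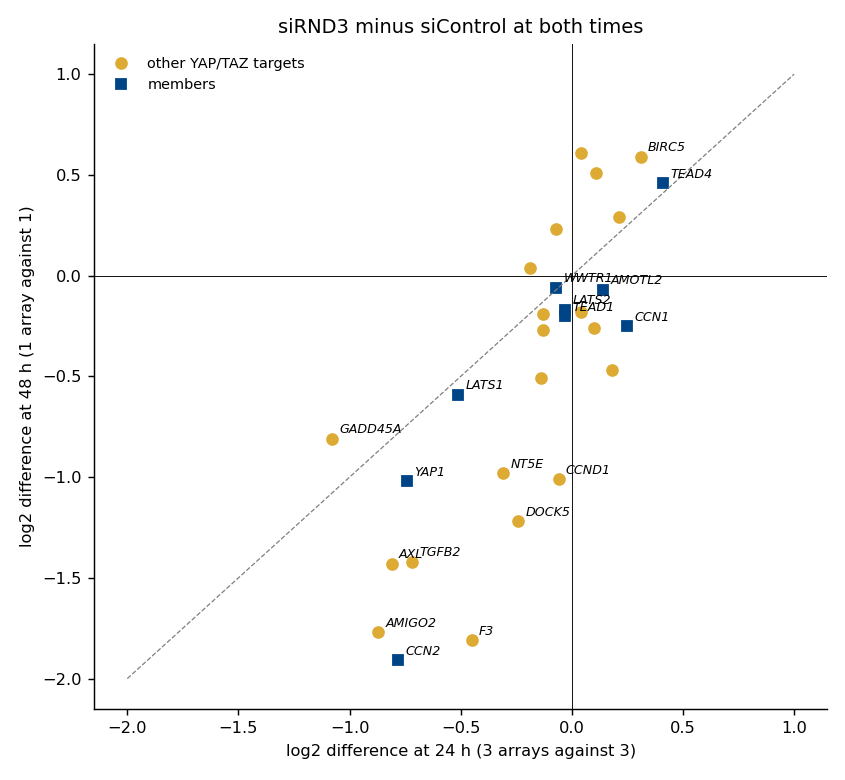
Log2 difference of siRND3 minus siControl at 24 h (horizontal axis, 3 arrays against 3) against that at 48 h (vertical axis, 1 against 1) for the 9 tested members (squares) and 20 further YAP/TAZ target genes (circles), with equal differences on the dashed line. CCN2, F3, AMIGO2, AXL and TGFB2 lie below the line in the lower left, and CCN1 lies right of 0 at 24 h and below 0 at 48 h.

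A wider list of 26 other genes reported as YAP and TAZ targets was examined in the same fit, of which 20 could be tested. Down-regulation passed the threshold for AXL, F3, TGFB2 and AMIGO2, up-regulation for BIRC5, and 15 genes did not pass. The 5 called are 25% of the 20 tested, beside 16.5% of all genes, of which 9.26% were called lower and 7.16% higher. The median difference over the 20 genes was -0.13 at 24 h and -0.37 at 48 h, beside 0.04 and 0.06 over all genes. The 6 that could not be tested were CRIM1, FOXF2, RBMS3, AREG, ANXA3 and CAVIN2, none of which was well above background on any array. With 1 array left out, 3 or 4 of the list were called, beside 7.13% to 12.7% of all genes.

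AMIGO2, a cell-surface adhesion protein, read 9.07, 9.08 and 9.14 in siControl and 8.25, 8.13 and 8.31 in siRND3 cells at 24 h, and fell to 54.9% of control (log2 difference -0.87, adjusted p = 0.00147). AXL, a receptor tyrosine kinase, read 13.73, 13.68 and 13.72 against 12.86, 12.97 and 12.89, a fall to 57.2% (-0.81, adjusted p = 0.00125). TGFB2, a TGF-beta ligand, read 6.69, 6.73 and 6.63 against 6.03, 5.98 and 5.89, a fall to 60.8% (-0.72, adjusted p = 0.00259). For all 3 genes the groups did not overlap, and each call held under all 17 other settings. F3, tissue factor, fell to 73.0% of control at 24 h (-0.45, adjusted p = 0.0211) and stood at 28.5% at 48 h. Its call at 24 h was lost with the replicate block and without any 1 siControl array, at an adjusted p of up to 0.0921. BIRC5, which encodes the mitotic protein survivin, rose to 124% of control (0.31, adjusted p = 0.0336), a call lost without any 1 of the 6 arrays. The stress-response gene GADD45A did not pass (-1.08, adjusted p = 0.144). It read 11.36, 12.89 and 11.35 in siControl and 10.68, 10.78 and 10.89 in siRND3 cells, with siControl replicate 2 far above the rest. Without that array its difference was -0.57 and passed (adjusted p = 0.0346). Of the 16 genes of this list with a window, 6 have a TEAD motif, beside 14.3% of all genes with a window. Among the called genes these are AXL, in 1 of its 2 promoter windows, and TGFB2. The others are THBS1 and EDN1, which did not pass, and FOXF2 and CAVIN2, which could not be tested. F3 and AMIGO2 have TGANTCA, found in 6.6% of all windows, but no TEAD motif. No window was found for BIRC5.

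Upstream of YAP and TAZ, 45 of 47 genes of the Hippo kinase core, its scaffolds and regulators could be tested, and 6 fell, 1 rose and 38 did not pass at 24 h. The 7 called are 15.6% of the list, near the 16.5% of all genes, and the median difference was -0.02. The kinase gene STK3 and the adaptors SAV1 and NF2 were among those that did not pass. AMOT, an angiomotin scaffold related to AMOTL2, read 5.90, 5.97 and 5.81 in siControl and 5.11, 5.19 and 5.27 in siRND3 cells (log2 difference -0.70, adjusted p = 0.00399). At 48 h AMOT was not well above background in siRND3 cells and, by 1 array against 1, was at least 5.44-fold lower than in siControl cells. Its other probe, too dim to test at 24 h, gave a bound of at least 2.29-fold at 48 h. The kinase TAOK1 fell by 0.51 (adjusted p = 0.0133), the ubiquitin-ligase subunit BTRC fell by 0.51 (adjusted p = 0.015), and the casein kinase CSNK1D fell by 0.45 (adjusted p = 0.0331). LIMD1 and RASSF1 also passed as lower. Of these 6 calls, that of AMOT held under all 17 other settings, while each of the others was lost with the replicate block and without siControl replicate 1. TAOK1 also lost its call without siControl replicate 2, BTRC without siControl replicate 3, and CSNK1D, LIMD1 and RASSF1 without any 1 siControl array and without 2 or all 3 of the siRND3 arrays taken singly. The highest adjusted p lay between 0.0599 for TAOK1 and 0.147 for RASSF1. STK4, the MST1 kinase that activates LATS, was the 1 gene to rise (0.29, adjusted p = 0.0478), on 1 of its 2 probes, the other standing at 0.30 (adjusted p = 0.0558). The STK4 call passed in 8 of 17 other settings and was lost without any 1 of the 6 arrays, with SAM, with no filter and with the replicate block, at an adjusted p of up to 0.155. With 1 array left out, between 1 and 5 of the list were called, the lowest count being without siControl replicate 1. Over all genes the share called was then between 7.13% and 12.7%, and 8.22% with the replicate block.

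Of 17 further TEAD factors and cofactors, 16 could be tested, 2 fell, none rose and 14 did not pass. The 2 called are 12.5% of the list, beside 16.5% of all genes, and the median difference was 0.03, beside 0.04 over all genes. TEAD2 (0.23, adjusted p = 0.274) and TEAD3 (0.20, adjusted p = 0.103) did not pass. JUN, an AP-1 subunit, read 12.02, 11.92 and 11.97 in siControl and 11.56, 11.41 and 11.52 in siRND3 cells and fell by 0.47 (adjusted p = 0.0124), a call lost without siControl replicate 1 or 3, at an adjusted p of up to 0.0606. With 1 array left out, 1 or 2 of the list were called, beside 7.13% to 12.7% of all genes. RUNX1 was called on 1 of its 5 probes, which read 11.18, 11.18 and 11.20 against 9.84, 9.92 and 10.07 (log2 difference -1.24, adjusted p = 0.000514). Its brightest probe stood at -0.23 (adjusted p = 0.144), so the probes of this gene disagree.

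**Figure D4:**
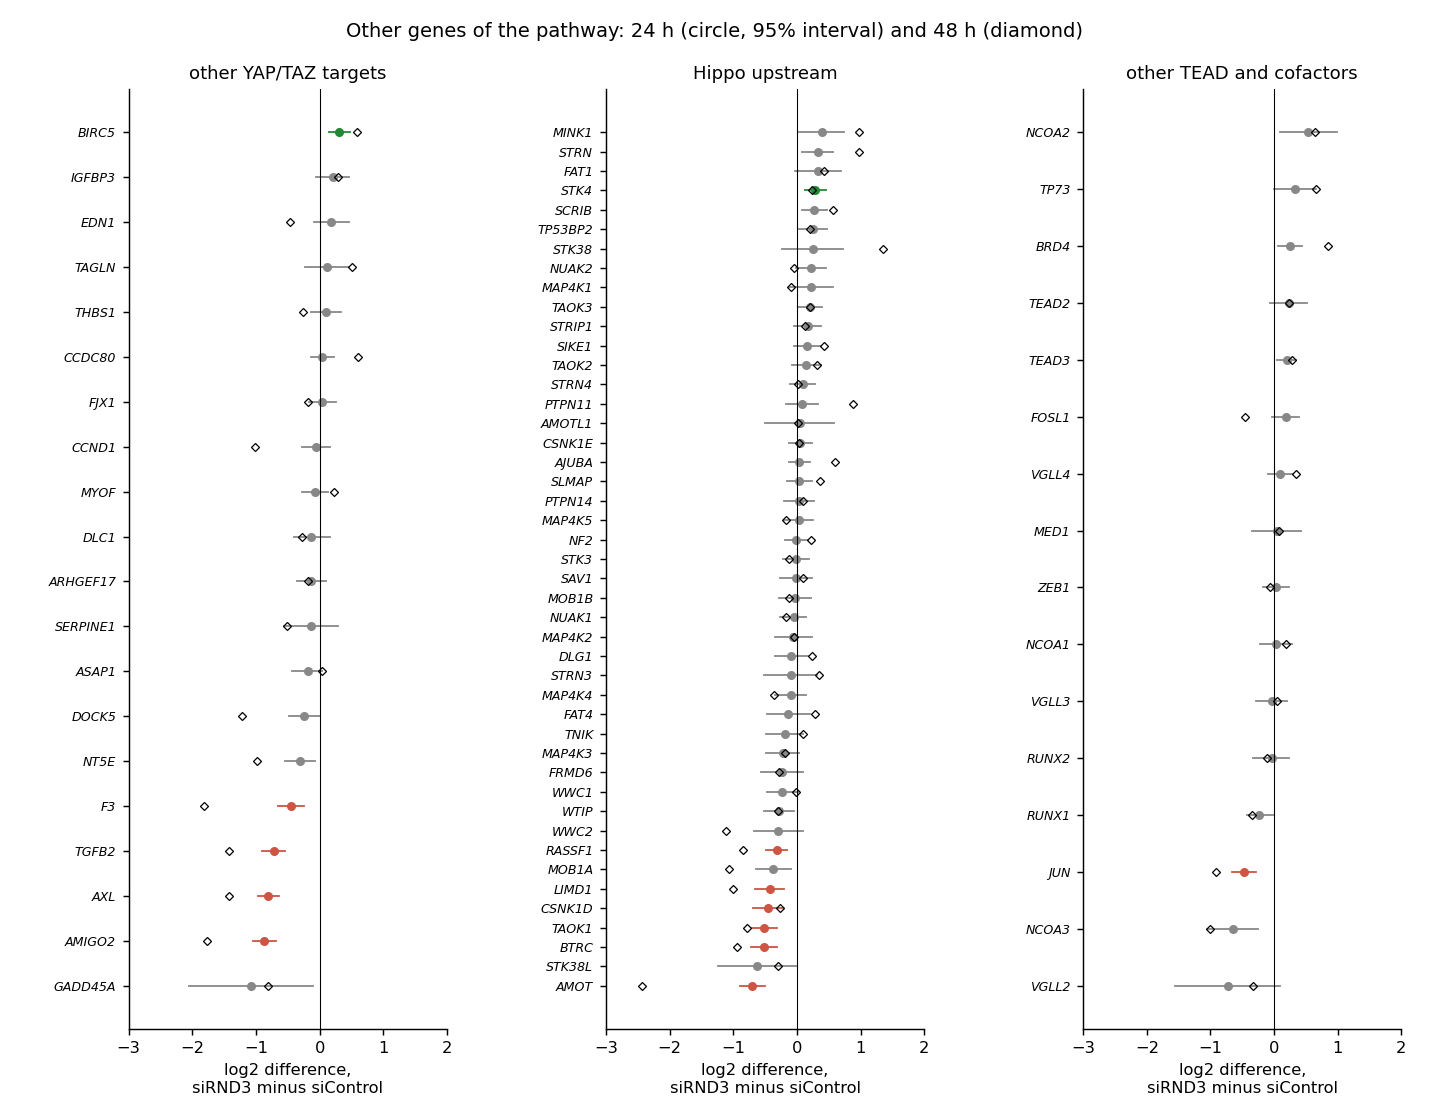
Log2 difference of siRND3 minus siControl (horizontal axis) for the brightest tested probe of each gene in 3 pathway lists, at 24 h (circles, with unadjusted 95% intervals from 3 arrays against 3; red lower, green higher and grey not past an adjusted p of 0.05) and at 48 h (diamonds, 1 array against 1). AMIGO2, AXL, TGFB2 and F3 are red among the targets and AMOT is the lowest red gene of the Hippo list, while the RUNX1 circle is grey because its called probe is not its brightest.

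The genes whose signal followed the targets most closely over all 8 arrays were sought among 18117 named probes well above background on every array. For CCN2 these were ADGRE5 (Pearson r = 0.997), CTSC (0.994), the gene for the lysosomal protease cathepsin C, and KPNA2 (0.991), the gene for an importin. For CCN1 they were CDCA8 and NUP85 (0.964 each) and AURKB (0.959). CDCA8 and AURKB encode subunits of the mitotic chromosomal passenger complex. CDCA8 stood at 0.24 at 24 h and -0.32 at 48 h, and AURKB at 0.25 and -0.22, beside 0.25 and -0.25 for CCN1, with no test passed at 24 h. The 8 points of each correlation share the slide and the 4 groups, and the correlations are given as a description. For ANKRD1 none was sought, since it was not well above background.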

How the data were processed

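Total RNA from U87 cells was labelled with Cy3 by the authors with a low-input amplification kit and hybridised to 1-colour Agilent human arrays. Agilent Feature Extraction 10.7.3.1 made the deposited scanner files, whose spot intensity is linear and, per the file headers, background-corrected within each array. The authors also deposited a table of quantile-normalised log2 values, which ranked spots within an array like the spot median signal (lowest Spearman correlation 1.0). The array design was annotated on hg19.

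Log2 processed intensity was quantile-normalised over 8 arrays. Control spots (4259 of 62976) were left out, which left 58717. Spots marked as outliers on an array (0.364% to 0.53%) were then left out and the others averaged to 42405 probes, of which 25419 (59.9%) were named through RefSeq accessions (GRCh38.p14). A probe was well above background on an array when 50% of its spots were so marked, as for 68.3% to 70.7% of probes per array. No spot was saturated. Probes that met this on all 3 arrays of either group at 24 h (28759) were tested with limma 3.58.1 in R 4.3.3, with Benjamini-Hochberg adjustment over all of them and a threshold of 0.05. A gene was called when at least 1 probe passed, and was called lower or higher when none passed the other way. The 16.5% of all genes called at 24 h includes 5 genes with probes past the threshold in both directions. Each gene is described by its brightest tested probe. The script was tested on simulated data. The number of arrays limits the precision.

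The members, lists and tests were chosen with earlier results of these data known. Named were all members, RND3, the 4 largest rises and falls past the threshold in each other pathway list, and the 3 genes most like CCN1 and CCN2 (the rule also held ANKRD1, for which none was sought). GADD45A, RASSF1, LIMD1, STK3, SAV1, NF2, TEAD2 and TEAD3 were named outside this rule, after their values were seen. Alternatives were 75th percentile scaling, normexp background with an offset of 50, the authors' log2 values, no or a stricter filter, gene means, a replicate block, array weights, SAM, normalisation of 6 arrays, an additive model and each 24 h array left out. A probe dim on all arrays of a group is given as a bound, against the higher of its own value and the lowest signal well above background.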

Additional observations from a re-analysis of the deposited data

Results flagged for a closer look

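No member had a knockdown effect that differed between 48 h and 24 h past the threshold. Of the other pathway genes, 6 did on 1 probe, by the test of the difference itself in the limma model of 4 groups, with 1 array per treatment at 48 h. They were 1 of 45 tested Hippo genes, 1 of 16 TEAD factors and cofactors, and 3 lower and 1 higher of 20 other targets. Over all genes, 4.24% were called in this test. On the log2 scale the later effect minus the earlier was -1.74 for AMOT (adjusted p = 0.0165), -1.36 for F3 (adjusted p = 0.025) and -0.91 for AMIGO2 (adjusted p = 0.0412). The size of the AMOT value rests on a dim signal, since its probe did not clear background in siRND3 cells at 48 h. With the normexp background it was -0.40 and did not pass (adjusted p = 0.092). The same difference was -0.98 for the called probe of RUNX1 (adjusted p = 0.0386), -0.93 for a probe of NT5E (adjusted p = 0.0452) and 1.97 for a probe of CCDC80 (adjusted p = 0.0326). RUNX1, NT5E and CCDC80 are named here for this test. Their brightest probes stood at -0.11 (adjusted p = 0.803), -0.67 (adjusted p = 0.132) and 0.57 (adjusted p = 0.114). For CCDC80, the called probe did not exceed background clearly in siControl cells at 48 h. Leaving out any siControl array at 24 h ended the calls of AMOT, F3 and AMIGO2, as did leaving out siRND3 replicate 1 for F3 and any siRND3 array at 24 h for AMIGO2. Most calls over all genes were lost as well. Their share fell from 4.24% to between 0.0405% and 0.149% without 1 siControl array, and to between 1.06% and 1.47% without 1 siRND3 array.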

How the results depend on the processing

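Of 917 repeated values with a test, 792 kept their direction and their side of the threshold, 97 lost the call, 12 gained it and 16 changed sign. Many of the 917 repeat a result that was not called with the main settings and so had no call to lose. The 97 are therefore a larger share of the repeats of called results than of all 917. The 4 member genes called at 24 h became 2 (YAP1 and CCN2) with the replicate block, and between 2 and 4 with 1 array left out. Over all genes the share called at 24 h was 8.22% with the block and between 7.13% and 12.7% with 1 array left out, beside 16.5%. Same-numbered arrays of the treatments did not deviate together (correlations 0, -0.01 and 0.13), so the labels' numbers were not used as pairs; at 24 h they are also the slide columns. The 3 members lower at 48 h in siRND3 cells became 0 with the replicate block, and 0 to 2 with 1 array left out. With the block only 1 of 14803 genes was called in that comparison, beside 12.9% with the main settings, so the block could not single out these members. The 0 members whose effect differed between the times became 1 (CCN2) with the normexp background, with the authors' deposited values, with the filter on all 6 arrays, with the mean of all probes and with array weights, and remained 0 with 1 array left out. The sign changed only for differences near 0 that passed in no setting. LATS2 at 24 h was 0.01 with scaling to the 75th percentile and -0.15 to 0.11 with 1 array left out, and its siControl change over time was -0.01 with array weights and -0.12 to 0.08 with 1 array left out. The siControl change of CCN1 was 0.01 with that scaling and -0.04 to 0.02 with 1 array left out. The siRND3 change of LATS1 was -0.02 with the normexp background and -0.02 with the authors' values, and its difference between the effects was 0.04 with the mean of all probes. The difference between the effects was -0.03 to 0.08 for WWTR1 and -0.05 to 0.09 for RND3 with 1 array left out. The dim LATS1 and ANKRD1 signals limit what can be said of them.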
